A study of Rattus norvegicus with 6 samples.

Results

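The leukocyte integrins are the adhesion receptors by which white blood cells hold on to other cells and to matrix, and 7 of their genes were looked for, namely Itgb2, Itgal, Itgam, Itgax, Itgad, Itga4 and Itgb7. A gene was taken from the table when the platform annotation gave a probe set that 1 symbol alone. By that rule 6 of the 7 genes had a probe set, 1 each, among 14506 genes named in this way. No probe set carried the symbol Itgax, so Itgax was not analysed here. The RefSeq gene table lists Itgax as a gene of its own and also as a synonym of Itgad. The probe set used for Itgad was matched to Itgad by its gene identifier.

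Cells were taken from long bones of Sprague Dawley rats 2 to 5 days old and allowed to adhere to wells coated with osteopontin from bovine milk (OPN) or prothrombin from mouse (PT). Osteopontin is an acidic phosphoprotein of bone matrix, and prothrombin is the zymogen of thrombin, a protease of blood clotting. The study asked how the bone cell populations caught by the coatings differ. Total RNA of the adherent cells was hybridised to Affymetrix Rat Gene 1.0 ST arrays, 3 from OPN-adherent cells (replicates 2, 3 and 4) and 3 from PT-adherent cells (replicates 1, 2 and 4). All samples share strain, age and tissue, and the adherent cells were a mixture that was not sorted. Values are PLIER signals on a linear scale, and the median signal per array lay between 218 and 231 on OPN and between 208 and 222 on PT. Whether each array had its own animals or its own cell preparation is not stated, and p-values therefore cover the variation among these arrays alone, which may be technical.

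An integrin is a pair of 1 alpha and 1 beta chain. Itgb2 encodes the beta chain CD18, which all leukocyte integrins of the beta2 family share, and Itgal, Itgam, Itgax and Itgad encode its alternative alpha partners CD11a, CD11b, CD11c and CD11d. The pair of Itgal and Itgb2 binds ICAM molecules on other cells, whereas the pair of Itgam and Itgb2 also takes up complement-coated particles and binds fibrinogen. Itga4 encodes the alpha4 chain, which joins either Itgb1, to bind VCAM1, fibronectin and osteopontin, or Itgb7, to bind MAdCAM1 of mucosal vessels. In bone and marrow these receptors are known from macrophages, granulocytes, lymphocytes and the precursors of osteoclasts. In RefSeq's GRCr8 gene table Itgam, Itgax and Itgad lie side by side on chromosome 1 with 0 protein-coding genes between them, and Itgal lies 33 protein-coding genes away from Itgam. Itga4 is on chromosome 3, Itgb7 on chromosome 7 and Itgb2 on chromosome 20.

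The leukocyte integrin genes did not move as 1 group between the coatings. Itgal fell on OPN, and the other 5 measured genes did not pass the test. Differences are given as OPN minus PT in log2(signal + 16), fitted over all 29215 probe sets with limma, and a gene is called when its p adjusted over all probe sets is below 0.05. Of the 6 genes, 0 were called higher and 1 was called lower. Among all 14506 named genes 7.62% were called higher and 1.12% lower. Among all probe sets 5.82% were called, 5.05% higher and 0.77% lower. The median difference of the 6 genes was -0.18, with 2 above and 4 below 0, and that of all named genes was 0.04. In bulk samples such as these, fewer cells of a type and less RNA per cell cannot be told apart.

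Itgb2, the shared beta chain, had signals of 855, 986 and 908 on OPN, against 889, 1002 and 1152 on PT. The arrays of the coatings overlapped, and the PT arrays spread more widely than the OPN arrays. The difference was -0.14 (SE 0.10, 95% interval -0.38 to 0.10, adjusted p = 0.582 in limma), so a fall of up to 0.38 or a rise of up to 0.10 on the log2 scale lies within the interval.

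Itgal, the alpha chain of the lymphocyte function-associated antigen, had signals of 487, 537 and 464 on OPN, against 625, 644 and 709 on PT. Every OPN array was below every PT array. The means were 496 ± 37.0 on OPN and 659 ± 44.3 on PT (n = 3 each, SD), a 1.32-fold difference. In limma the log2 difference was -0.40 (SE 0.08, 95% interval -0.59 to -0.21, adjusted p = 0.0262). The direction held without each single array, but Itgal was no longer called without OPN replicate 2 (adjusted p = 0.105), OPN replicate 4 (adjusted p = 0.0957), PT replicate 2 (adjusted p = 0.0632) or PT replicate 4 (adjusted p = 0.0791).

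Itgam, whose product CD11b is abundant on neutrophils, monocytes and many macrophages, had signals of 314, 345 and 328 on OPN, against 270, 248 and 311 on PT. The arrays did not overlap, although the lowest OPN array and the highest PT array were close together. The difference was 0.24 (SE 0.09, 95% interval 0.04 to 0.45) and did not pass over all probe sets (adjusted p = 0.202 in limma).

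Itgad, the alpha chain CD11d, which is known from macrophages of spleen and marrow, had signals of 247, 225 and 222 on OPN, against 282, 243 and 294 on PT. OPN replicate 2 lay above PT replicate 2, so the coatings overlapped. The difference of -0.22 (SE 0.09, 95% interval -0.42 to -0.02) was not called (adjusted p = 0.230 in limma). Itgam and Itgad are close relatives, and whether their probes bind each other's transcripts was not tested.

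Itga4 had signals of 900, 1004 and 1051 on OPN, against 1210, 1130 and 1169 on PT. Every OPN array was below every PT array, with a difference of -0.25 (SE 0.08, 95% interval -0.43 to -0.07) that missed the threshold (adjusted p = 0.134 in limma). Itgb7, the beta chain that pairs with the alpha4 chain on gut-homing lymphocytes, had 267, 236 and 222 on OPN, against 227, 228 and 241 on PT. The arrays overlapped, OPN replicate 2 being the highest, and the difference was 0.05 (SE 0.08, 95% interval -0.14 to 0.24, adjusted p = 0.833 in limma). The signals of Itgb7, like those of Itgad on OPN, lay near the array medians (208 to 231). Whether these probe sets lie above background is not known.

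Across the 6 genes, arrays of the coatings did not overlap for Itgam, higher on OPN, nor for Itgal and Itga4, lower on OPN. Among all named genes the arrays did not overlap for 30.4%, higher on OPN for 21.6% and lower for 8.77%. When the array medians were made equal or the arrays were quantile normalised, the difference of every measured leukocyte integrin gene shifted down by less than 0.1. Itgal stayed called (adjusted p = 0.0117 and 0.00532), Itgb7 turned to -0.02 under both, and the other 4 genes kept their direction without a call.

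**Figure D1:**
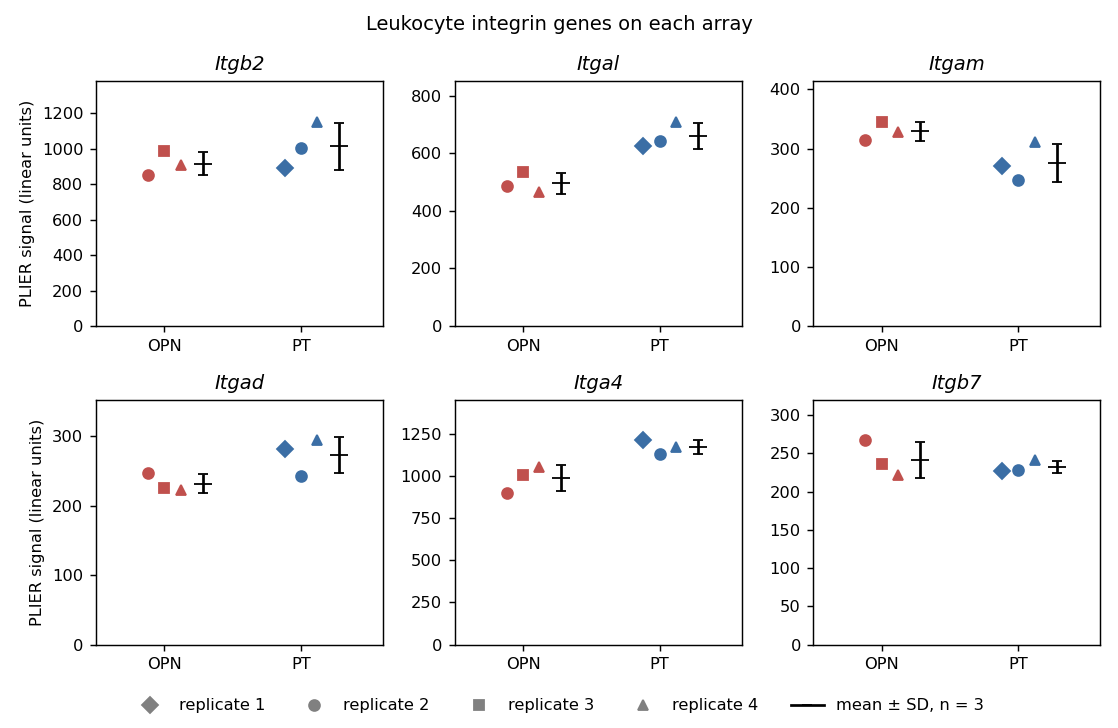
PLIER signal (linear units, axes from 0) of the 6 measured leukocyte integrin genes on each array, with OPN arrays in red and PT arrays in blue, marker shape giving the replicate number and black bars the mean ± SD (n = 3). Itgal and Itga4 are lower on all OPN arrays than on all PT arrays, Itgam is higher, and Itgb2, Itgad and Itgb7 overlap.

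**Figure D2:**
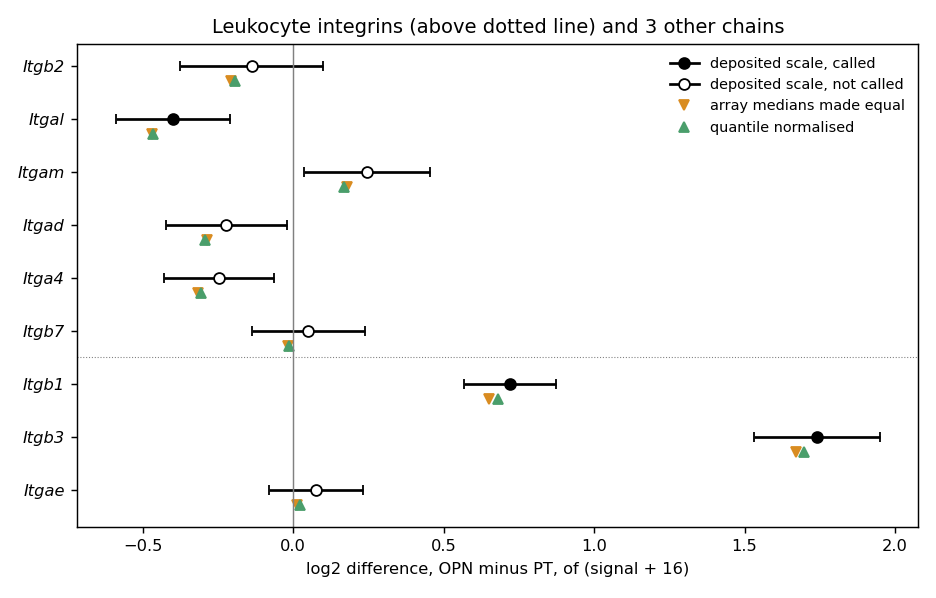
Log2 difference (OPN minus PT) of each measured leukocyte integrin gene and, below the dotted line, of Itgb1, Itgb3 and Itgae, with 95% intervals from limma, filled where the gene is called; the triangles give the same difference after scaling the arrays. Among the leukocyte integrins Itgal alone is called, at -0.40, while Itgb1 and Itgb3 lie far to the right at 0.72 and 1.74.

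Because each alpha chain needs a beta chain, the log2 value of one chain minus that of its partner was taken on each array, and the group means of that difference were compared. This shows whether the 2 probe sets changed unequally, not which chain is the more abundant. Itgal minus Itgb2 was -0.86 ± 0.077 on OPN and -0.60 ± 0.097 on PT (n = 3 each, SD), a change of -0.26. Itgam minus Itgb2 was -1.43 ± 0.038 on OPN and -1.82 ± 0.145 on PT (n = 3 each, SD), a change of 0.38. So relative to the common beta chain, the values for the CD11a chain were lower and those for the CD11b chain higher on all OPN arrays than on all PT arrays. An exact permutation test (two-sided) gave p = 0.1 for each, the smallest p that 3 against 3 arrays allow, and adjusted p = 0.15 over the 6 pairs. Itgad minus Itgb2 changed by -0.08 (exact p = 0.6, adjusted p = 0.7), with overlapping arrays, and turned to 0.03 without PT replicate 1.

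For the alpha4 chain, Itga4 minus Itgb1 was -0.98 ± 0.093 on OPN and -0.01 ± 0.023 on PT (n = 3 each, SD), a change of -0.97 (exact p = 0.1, adjusted p = 0.15). This was the widest of the 6 changes. It comes with a rise of Itgb1, the beta chain of many matrix receptors, which had 1890, 2020 and 1940 units on OPN, against 1197, 1142 and 1193 on PT (log2 difference 0.72, SE 0.07, adjusted p = 0.000297 in limma). Itga4 minus Itgb7 changed by -0.30 (exact p = 0.1, adjusted p = 0.15), a size set in part by OPN replicate 2, without which it was -0.16. Itgae encodes the other alpha partner of Itgb7 and had 174, 162 and 160 units on OPN, against 161, 152 and 154 on PT. These signals lay below the array medians, and whether they exceed background is not known. Itgae minus Itgb7 changed by 0.03 (exact p = 0.7, adjusted p = 0.7), and the difference of Itgae itself was 0.08 (adjusted p = 0.657 in limma).

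Between the alpha chains themselves, Itgam minus Itgal was -0.57 ± 0.073 on OPN and -1.21 ± 0.096 on PT (n = 3 each, SD), a change of 0.64 with no overlap of the arrays. Itgam minus Itgad changed by 0.47, also without overlap, and Itga4 minus Itgal by 0.15, with overlap. These 3 pairs and 18 comparisons with cell markers, which are given below, were chosen after the values were seen. Their smallest exact p was 0.1, or 0.162 adjusted over the 21.

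**Figure D3:**
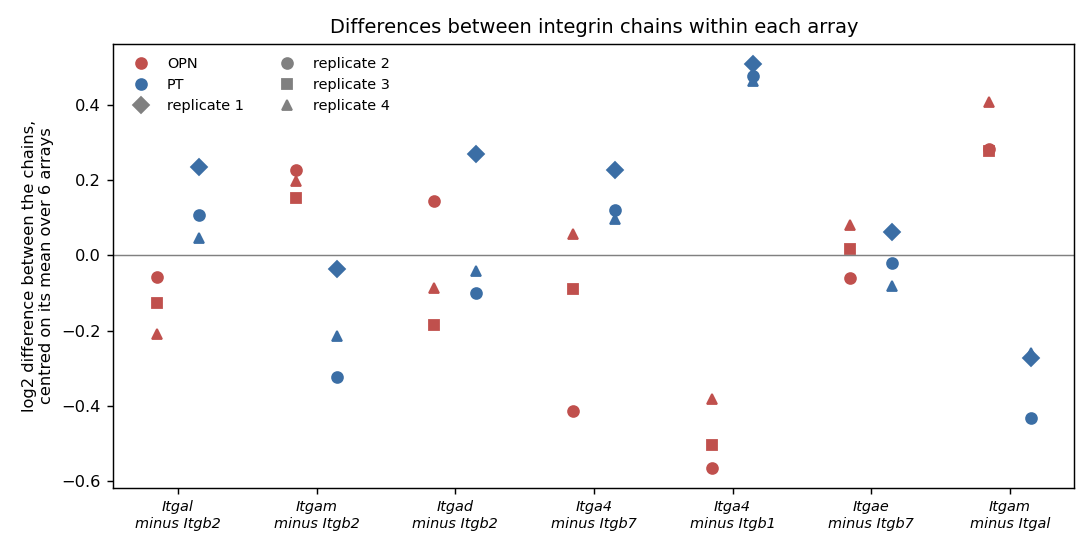
Log2 value of one integrin chain minus another on each array, centred on the mean over the 6 arrays, for the 6 partner pairs and for Itgam minus Itgal; OPN arrays are red and PT arrays blue. The arrays separate for Itgal minus Itgb2, Itgam minus Itgb2, both Itga4 pairs and Itgam minus Itgal, and overlap for Itgad minus Itgb2 and Itgae minus Itgb7.

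The adherent cells contained RNA of several leukocyte types. For the counts of calls in the marker lists below, the shares over all named genes were 7.62% called higher and 1.12% called lower. A count of 0 in a short list lies near these shares. Summed over 5 genes that most leukocytes express (Ptprc, Laptm5, Cd37, Cd48 and Cd52), the signal was 6011 to 6633 on OPN and 5793 to 7088 on PT, and 0 of the 5 genes were called. The sum over 12 macrophage markers was 10183 to 10900 on OPN and 14193 to 14941 on PT, with 8 genes lower and 0 higher. Over 12 neutrophil markers it was 16841, 19080 and 18422 on OPN, against 11407, 13322 and 18409 on PT, with 0 genes called although all 12 lay above 0 (median 0.29). T cell, B cell and dendritic cell markers (9, 3 and 5 measured) had sums that overlapped between coatings and 0 calls. Sums over 6 NK cell markers were 1862 to 1932 on OPN and 1787 to 1831 on PT, also with 0 calls. Several T cell, dendritic cell and NK cell markers, such as Cd3d, Xcr1 and Klrd1, lay below the array medians. Whether these exceed background is not known, so similar sums do not show similar numbers of these cells. Markers of osteoclasts and of osteoblasts and stroma were higher on OPN (5 of 6 and 10 of 10 called), at sums of 19140 to 21596 on OPN and 2568 to 2805 on PT for osteoclasts. Endothelial and platelet markers were higher too (5 of 5 and 3 of 3 called).

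Each gene was then set against the mean log2 value of a marker list on the same array. Relative to the 5 leukocyte markers Itgal changed by -0.39, with no overlap (exact p = 0.1). Relative to the macrophage markers, Itgal changed by 0.01, with overlapping arrays (exact p = 0.8). The log2 differences of the macrophage markers themselves ranged from -0.87 (Cd163) to 0.18 (Cd68). Relative to their mean, Itgb7 changed by 0.46 and Itgad by 0.18, without overlap (exact p = 0.1 each). Itgb2 changed by 0.27 and Itga4 by 0.16 relative to it, with overlap. Itgam changed by 0.65 relative to the macrophage markers, without overlap (exact p = 0.1), and by -0.05 relative to the neutrophil markers, with overlap (exact p = 0.8). Relative to the neutrophil markers, Itgb2 changed by -0.44, Itgal by -0.70, Itga4 by -0.54 and Itgad by -0.52, each without overlap (exact p = 0.1 each). Itgb7 changed by -0.25 relative to them, with overlap. Among the PT arrays replicate 4 had the highest signal of 5 of the 6 genes, all but Itga4. It also had the highest PT sum of the neutrophil, leukocyte, B cell, eosinophil, erythroid and osteoclast markers. For the macrophage markers and the remaining lists another PT array had the highest sum. Itgb2 changed by -0.13 relative to the leukocyte markers (exact p = 0.1) and Itga4 by -0.24 (exact p = 0.1), both without overlap, while Itgb7 (0.06) and Itgad (-0.22) overlapped. Itgam changed by 0.25 relative to the same markers, without overlap (exact p = 0.1). The part of each cell type in these differences was not tested.

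RefSeq promoters were found for 4 of the 7 genes, Itgam, Itgax, Itga4 and Itgb7. The 250 bases before the start are shown for the 3 that were also measured, since these comprise a gene higher on all OPN arrays (Itgam), a gene lower on all of them (Itga4) and a gene whose arrays overlapped (Itgb7). Capitals mark matches, on either strand, to GAGGAA (the core bound by the myeloid factor PU.1), TGTGGT (the core bound by RUNX factors) or TGANTCA (the AP-1 motif), which do not overlap each other here. The sequences run 5′ to 3′ on the gene's strand in build GRCr8, from chr1:192089342-192089591 (plus strand) for Itgam, chr3:84569765-84570014 (plus strand) for Itga4 and chr7:135239072-135239321 (minus strand) for Itgb7.
Itgam: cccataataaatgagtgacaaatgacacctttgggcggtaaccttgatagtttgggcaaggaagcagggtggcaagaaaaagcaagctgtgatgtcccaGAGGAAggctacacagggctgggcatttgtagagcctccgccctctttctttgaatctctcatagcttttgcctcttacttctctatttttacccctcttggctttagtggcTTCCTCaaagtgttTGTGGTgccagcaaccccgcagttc
Itga4: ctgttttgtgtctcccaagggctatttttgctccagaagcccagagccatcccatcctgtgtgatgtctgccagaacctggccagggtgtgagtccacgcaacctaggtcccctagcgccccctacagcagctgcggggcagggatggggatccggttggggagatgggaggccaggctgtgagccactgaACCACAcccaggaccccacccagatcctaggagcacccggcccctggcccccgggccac
Itgb7: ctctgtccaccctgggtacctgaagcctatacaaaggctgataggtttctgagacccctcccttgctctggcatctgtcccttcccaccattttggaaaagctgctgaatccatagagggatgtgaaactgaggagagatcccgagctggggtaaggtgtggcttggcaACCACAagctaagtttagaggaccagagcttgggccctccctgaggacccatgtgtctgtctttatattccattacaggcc

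Itgam held GAGGAA 2 times, with first bases 151 and 39 bases before the start, and neither Itga4 nor Itgb7 held it. GAGGAA occurs in this window in 23.3% of 33469 promoters. TGTGGT occurs in 14.5% of them and was matched in all 3 sequences, 25 bases before the start in Itgam, 59 in Itga4 and 81 in Itgb7. TGANTCA, found in 6.34% of promoters, matched 0 times in these 3. A match is a description of the letters and does not show binding. Among the genes of factors for these cores, Spi1 (PU.1) and Runx1 had 406 ± 31.5 and 733 ± 22.5 units on OPN and 381 ± 19.0 and 679 ± 17.0 units on PT (n = 3 each, SD), and neither was called. Runx2, also an osteoblast and stromal marker, had 550 ± 30.9 units on OPN, against 244 ± 29.6 on PT (n = 3 each, SD). It was called higher (1.13, adjusted p = 0.000196 in limma). Runx3 was not called (0.08, adjusted p = 0.626 in limma). Whether these factors act on the leukocyte integrin genes here was not tested.

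Counter-receptors and ligands of the leukocyte integrins moved in both directions. With 14 genes measured, OPN-adherent cells had 4 that rose and 2 that fell, and the median was 0.09. For this list and the lists that follow, the shares over all named genes were 7.62% called higher and 1.12% called lower. Vcam1, the endothelial, stromal and macrophage ligand of the alpha4 beta1 pair, fell to 1260 ± 43.1 on OPN, against 1830 ± 33.1 on PT (n = 3 each, SD), a log2 difference of -0.53 (adjusted p = 0.00165 in limma). Vcam1 was not called with the replicate number as a block in the fit (-0.55, adjusted p = 0.0605 in limma). Cdh1, the E-cadherin bound by the Itgae and Itgb7 pair, fell too (-0.54, adjusted p = 0.00315 in limma). Fn1, the fibronectin gene, rose (1.24, adjusted p = 5.55e-05 in limma), as did the junctional adhesion gene Jam2 (0.97) and the surface glycoprotein gene Thy1 (0.61). F11r, a junctional adhesion molecule that binds the Itgal pair, rose by 0.35. Its mean signals, 170 on OPN and 131 on PT, lay below the array medians, and whether they exceed background is not known. Icam1, the main ligand of the beta2 integrins, stood at 854 ± 20.2 units on OPN, against 773 ± 11.7 on PT (n = 3 each, SD) and was not called (0.14, adjusted p = 0.301 in limma). The ligands called higher numbered 2 without any 1 of OPN replicates 2, 3 and 4 or without PT replicate 2: Thy1 (adjusted p between 0.0699 and 0.0875) and F11r were lost there, and F11r also without PT replicate 1 or 4 (0.0629 to 0.168 over the 6 arrays).

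Genes that switch integrins on or tie them to actin rose in 4 of 15 measured and fell in 0 (median 0.17). The 4 were Fermt2 (0.99), the kindlin of non-blood cells, Flna (0.64) and Vcl (0.62), which encode the actin linkers filamin A and vinculin, and Rap1b (0.44), a small GTPase that activates integrins. Rap1b was called with all arrays and without PT replicate 4, and lost without each other array (adjusted p between 0.0982 and 0.184) and with equal array medians (adjusted p = 0.0659). Fermt3, the kindlin of blood cells and the one leukocyte integrins need, stood at 1278 ± 13.7 units on OPN, against 1088 ± 62.4 on PT (n = 3 each, SD). Its difference of 0.23 was not called (adjusted p = 0.116 in limma). Tln1, the talin gene, stood at 0.17 (adjusted p = 0.299 in limma).

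In the signalling list below leukocyte integrins 1 of 17 measured genes rose, the kinase gene Src (0.47, adjusted p = 0.00685 in limma), and 0 fell, with a median of 0.00. With the replicate number as a block Src was not called (0.43, adjusted p = 0.129 in limma). The adaptor gene Lcp2 (0.31, adjusted p = 0.102) was called higher without PT replicate 4 (adjusted p = 0.0219), and the signalling chain gene Fcer1g (-0.33, adjusted p = 0.0933) lower without PT replicate 1 (adjusted p = 0.0337). Vav1, an exchange factor of leukocytes, lay at -0.26 (adjusted p = 0.0796) and was called lower with equal array medians (adjusted p = 0.0313), as with quantile normalisation (adjusted p = 0.0187). These 3 genes were chosen after their values were seen, and their p-values are from limma.

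Of 9 measured genes for rolling and other leukocyte adhesion, 4 rose and 0 fell, with a median of 0.14. They were the selectin genes Selp (1.14) and Sele (0.76), the junction gene Pecam1 (0.72) and the lymphocyte and platelet receptor gene Cd226 (0.78). Mean signals of Sele (198 on OPN, 111 on PT) and Cd226 (164 on OPN, 89.4 on PT) lay below the array medians on both coatings. Whether these 2 exceed background is not known. Selp, Sele and Pecam1 are known from endothelium, and all 5 endothelial markers rose on the same arrays. So did all 3 measured platelet markers, Pf4 (0.80), Gp1ba (0.71) and Gp9 (0.55). The part of either cell type in these differences was not tested. Of 10 transcription factor genes 2 rose, Klf2 (0.68) and Ets1 (0.65), and 0 fell.

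Several other integrin chains rose on OPN. Among the 14 measured chains 7 rose and 0 fell, and their median was 0.39. Itgb3, the beta chain with which osteoclasts bind osteopontin, had 1995, 2064 and 1816 units on OPN, against 614, 511 and 603 on PT (log2 difference 1.74, adjusted p = 9.65e-06 in limma). Besides Itgb1, the collagen receptor chains Itga10 (0.87) and Itga1 (0.69) rose. The count was 4 without OPN replicate 2 or OPN replicate 3. The difference between the leukocyte chains and the others as groups was not tested.

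**Figure D4:**
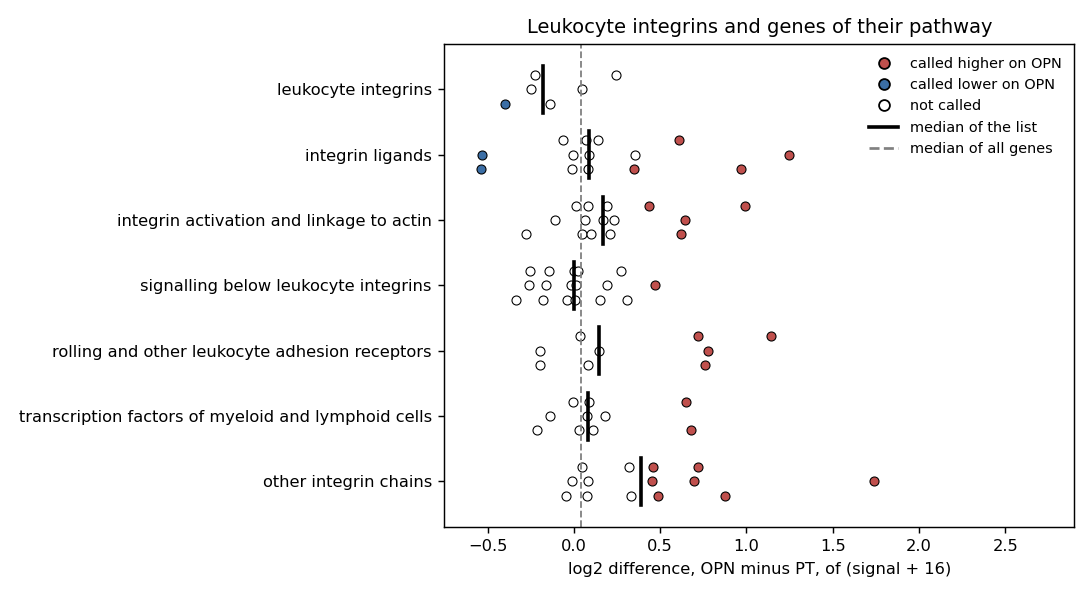
Log2 difference (OPN minus PT) of each measured gene of the leukocyte integrins and of the 6 pathway lists, red where called higher, blue where called lower and white where not called; black bars are list medians and the dashed line the median of all named genes (0.04). The leukocyte integrins have the lowest median of the groups shown (-0.18), and the other integrin chains the highest (0.39).

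By the root mean square distance between log2 values centred per gene over the 6 arrays, the 5 genes nearest to Itgb2 were Hist1h2af, Ubqln4, Slc25a39, Cat and Josd1, at 0.034 to 0.038. The median gene lay at 0.181. The other leukocyte integrins were farther from Itgb2 than these, at 0.144 for Itga4, 0.149 for Itgal, 0.156 for Itgad, 0.173 for Itgb7 and 0.21 for Itgam. Between 3532 (Itga4) and 9888 (Itgam) other genes lay nearer to Itgb2 than its fellow chains did. Profiles over 6 arrays share array-wide scaling and the 2 coatings, and a small distance describes the values alone.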

How the data were processed

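RNA of 6 samples was measured on Affymetrix arrays. The deposited table holds 1 linear intensity per probe set and array, made by the authors with Affymetrix Expression Console and PLIER, per the submitters' processing notes. The sources used here do not give versions, background correction, scaling between arrays or the genome build, and detection calls were not used, so which probe sets lie above background is not known.

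Groups came from the sample titles. Probe sets were named through the platform annotation, in which 15310 of 29215 had 1 symbol and 323 had several. For the 527 genes with several probe sets, the brightest one on average was taken. Values were transformed as log2(intensity + 16), and fold differences on this scale understate the change of dim probe sets. A linear model with a coating term was fitted to all probe sets, without a filter, in limma 3.58.1 (lmFit, eBayes; R 4.3.3), and p-values were adjusted by Benjamini-Hochberg over all of them. Partner chains were compared by exact two-sided permutation tests. Of 194 list genes 170 were measured. Both groups have a replicate 2 and a replicate 4, but no source says that the numbers pair the samples, so the fit had no block. The test was checked on simulated data with normal noise that was independent between arrays. That check does not cover variation that arrays of a coating may share, such as that of a common preparation.

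Named genes are the 7 members, the partner chains Itgb1, Itgae and Itgb3, up to 4 called genes per list and direction with the smallest p, and the 5 genes nearest to Itgb2. Icam1, Fermt3, Tln1, Spi1, Runx1, Runx2, Runx3, Lcp2, Fcer1g and Vav1 were added after their values were seen. The members and lists were chosen with earlier results of these data known. Alternatives changed the scaling, the offset (1 or 64), a filter at a mean signal of 100, the variance model, the row per gene, the arrays used and the block.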

Additional observations from a re-analysis of the deposited data

How the results depend on the processing

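The direction of Itgb2, Itgal, Itgam, Itgad and Itga4 was the same under all 14 alternatives, and Itgb7 lay below 0 under 3. The filter, the variance model and the row per gene leave these differences unchanged, since each measured gene has 1 probe set. Under those alternatives the direction was fixed in advance and only the call could change. Itgal ranged from -0.49 to -0.35 and was called under 9 of the 14 alternatives. With the replicate number as a block it was -0.49 without a call (adjusted p = 0.105), and 0 leukocyte integrin genes were called lower. Without single arrays Itgal lay between -0.46 and -0.35 (adjusted p between 0.0384 and 0.105), with 0 or 1 leukocyte integrin genes called lower. Itga4 was called (-0.25, adjusted p = 0.0447), making 2 genes lower, when the variance model had an intensity trend and robust settings.

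Lower calls over all probe sets, 225 in the fit described, numbered 551 with equal array medians, 745 with quantile normalisation, 382 with offset 64, 343 with the filter on dim probe sets and 516 with the trend. The share of calls that were higher, 86.8%, was 68.4% with equal medians and 64.6% with quantile normalisation. Of the genes of the pathway lists, 22 were called higher and 2 lower. The lower calls numbered 4, 6, 4, 4 and 5 under the same 5 alternatives in that order, where Irf8, Vav1, Apbb1ip, Pik3cd and Fcer1g were among them. With the block 618 probe sets were called higher and 48 lower, and 11 and 1 pathway genes. There Vcam1 lost its lower call, and F11r, Thy1, Rap1b, Vcl, Flna, Src, Ets1, Itga1, Itga2, Itga5 and Itga11 lost their higher calls. Without single arrays the higher calls ranged from 928 to 1357 and the lower from 95 to 181.

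Among the partner pairs, Itgae minus Itgb7 turned to -0.0074 without OPN replicate 4 and -0.00755 without PT replicate 4 (range -0.00755 to 0.0643 without single arrays), and Itgad minus Itgb2 turned to 0.0297 without PT replicate 1 (range -0.177 to 0.0297). The pair of Itgax and Itgb2 was not run. Same-numbered arrays did not deviate together (correlations of -0.08 for number 2 and 0.07 for number 4). The cause of these changes was not tested. The number of arrays, 3 per coating, limits the precision.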
